A study of Mus musculus with 15 samples.

Results

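The long H3K36me3 domains of wild-type (WT) bone marrow-derived macrophages (BMDMs) are described here. The WT region lists of both H3K36me3 libraries were merged on chromosomes 1 to 19 and X, which gave 55684 merged regions, of which 31504 were present in both libraries. A merged region was kept when it was at least 20 kb wide and was overlapped in both libraries, and 1526 regions met this rule. The members were chosen by their measured WT width and WT cover, so these values are given below as a description only. The domains were 4.84% of the regions in both WT libraries but held 46.2 Mb, which was 26.4% of the length of those regions.

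The series contained 15 CUT&RUN samples of mouse BMDMs. In this assay an antibody directs a nuclease to a chromatin feature and the released DNA is sequenced. WT cells came from mice with floxed H3f3a and H3f3b, the genes that encode the histone variant H3.3, and carried no Cre. H3.3 conditional knockout (cKO) cells carried the same floxed alleles plus LysM cre/cre, in which Cre is expressed from the Lyz2 locus in macrophages and granulocytes, so the floxed alleles were shared by both genotypes. Deletion of H3f3b was described in the study as complete in some preparations and partial in others. A further genotype carried an HA tag on H3f3b and was used to map H3.3 (H3.3-HA). The mice were on a C57BL/6 background and 8 to 10 weeks old, and the marrow was grown with L929-conditioned medium for 6 to 8 days. Each antibody and genotype was represented by 2 libraries, labelled as biological replicates, and control IgG samples served as background.

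H3K36me3 is the trimethyl mark that SETD2 places on histone H3 as it travels with elongating RNA polymerase II. It therefore lies over the bodies of transcribed genes, is low at promoters and commonly rises towards the 3′ end. H3.3 is the H3 variant that is deposited outside of replication, largely at active genes and enhancers, and H3K27ac marks active promoters and enhancers. A macrophage gene with a long, unbroken H3K36me3 domain is thus usually a long gene transcribed in these cells.

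The H3K36me3 libraries held 14027132 to 15086387 tags in WT and 23503055 to 23782914 tags in cKO. The cKO library 1 stood apart: 19.3% of its tags were in called regions, against 46.5% in cKO library 2 and 47.1% and 50.2% in WT, and its regions covered 90.6 Mb against 163 to 170 Mb in the other 3. It had 206 regions of at least 20 kb, whereas cKO library 2 had 1300 and the WT libraries had 990 and 1118. All results on cKO cover are therefore given for each library. Macrophage markers were checked first. Of 9 macrophage genes, 7 had a region in both WT libraries, Cd68 had none in either, and all 9 had one in both cKO libraries. Of 34 markers of other blood cells and fibroblasts, 2 had a region in each WT library, 0 in cKO library 1 and 3 in cKO library 2.

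Sequences from domains at both ends of the range are printed to show what kind of DNA was kept and lost. Each window is 200 bases of intron, read along the host gene in GRCm38 (mm10), with CpG dinucleotides in capitals. The windows of Pla2g7 (chr17:43606045-43606244, plus strand) and Kdm5b (chr1:134612439-134612638, plus strand) lie near the middle of the longest stretch that was covered in neither cKO library, of 15445 bp and 8133 bp. The windows of Lrp1 (chr10:127564394-127564593, minus strand) and Osbpl8 (chr10:111275273-111275472, plus strand) lie near the middle of domains that were covered without a break in both cKO libraries. All 4 windows were fully covered in both WT libraries.
Pla2g7, lost in cKO: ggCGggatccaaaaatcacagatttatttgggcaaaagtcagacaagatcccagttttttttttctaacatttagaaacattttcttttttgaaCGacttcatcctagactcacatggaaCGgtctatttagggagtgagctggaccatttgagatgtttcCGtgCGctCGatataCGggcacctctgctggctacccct
Kdm5b, lost in cKO: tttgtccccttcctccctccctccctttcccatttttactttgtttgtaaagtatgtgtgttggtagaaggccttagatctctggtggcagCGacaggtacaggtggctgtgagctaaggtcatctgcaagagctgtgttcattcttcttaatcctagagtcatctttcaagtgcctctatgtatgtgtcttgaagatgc
Lrp1, kept in cKO: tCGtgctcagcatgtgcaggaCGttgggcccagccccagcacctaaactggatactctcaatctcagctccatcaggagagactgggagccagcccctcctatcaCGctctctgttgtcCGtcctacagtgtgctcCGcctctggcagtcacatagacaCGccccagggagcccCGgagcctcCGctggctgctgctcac
Osbpl8, kept in cKO: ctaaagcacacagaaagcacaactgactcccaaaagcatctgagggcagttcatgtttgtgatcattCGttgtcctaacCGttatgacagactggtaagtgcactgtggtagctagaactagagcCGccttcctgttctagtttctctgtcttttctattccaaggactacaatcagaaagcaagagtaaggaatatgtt
These windows held 7, 1, 8 and 3 CpG dinucleotides, with a GC content of 43.0%, 45.5%, 62.0% and 43.0%. Over all domains the GC and repeat content of kept and lost DNA was close. The 29.5 Mb that stayed covered in both cKO libraries had a GC content of 42.8%, and the 3.34 Mb covered in neither had 43.5%. Annotated repeats made up 25.5% and 25.2% of these lengths, against 34.3% of the chromosomes as a whole. Other measures differed. Protein-coding genes held 97.5% of the kept and 88.0% of the lost length, and their exons 18.2% and 15.2%. WT libraries 1 and 2 covered 98.0% and 98.8% of the kept length but 83.7% and 87.2% of the lost length.

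The promoters of host genes are shown for a pair of domains that differed in H3K27ac at the start site. The sequences are the 250 bases upstream of the RefSeq start of Kdm5b (chr1:134559928-134560177, plus strand) and Osbpl8 (chr10:111164552-111164801, plus strand), again with CpG in capitals.
Kdm5b promoter: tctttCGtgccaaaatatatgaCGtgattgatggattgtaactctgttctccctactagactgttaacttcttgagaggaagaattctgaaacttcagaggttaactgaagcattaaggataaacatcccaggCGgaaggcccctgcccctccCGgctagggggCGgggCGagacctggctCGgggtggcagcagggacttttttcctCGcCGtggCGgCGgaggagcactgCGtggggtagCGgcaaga
Osbpl8 promoter: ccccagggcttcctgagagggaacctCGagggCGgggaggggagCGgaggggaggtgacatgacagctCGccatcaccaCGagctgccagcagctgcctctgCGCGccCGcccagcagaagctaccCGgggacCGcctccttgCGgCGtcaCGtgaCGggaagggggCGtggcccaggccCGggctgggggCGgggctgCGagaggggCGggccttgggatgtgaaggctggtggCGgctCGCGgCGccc
The Kdm5b sequence was covered by H3K27ac in none of the 4 libraries and held 13 CpG dinucleotides. The Osbpl8 sequence was fully covered in all 4 and held 23. Promoters of 1107 host genes could be matched in RefSeq, over 250 bases before to 50 after the start. They held a median of 25 CpG dinucleotides (quartiles 17 and 33), whereas all 16432 matched genes had a median of 14 (quartiles 4 and 25). The letters CG were found in 99.7% of host promoters and 95.2% of all promoters.

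The domains lay almost entirely in protein-coding genes. The domains had a median width of 26846 bp (quartiles 22735 and 34100, widest 102408), and 214 of them reached 40 kb. A host gene, the protein-coding gene of GENCODE M21 with the largest overlap, was found for 1511 domains (99.0%). These were 1378 distinct genes, which is 6.34% of the 21728 protein-coding genes. Among the 10061 protein-coding genes of 20 kb or more, 1350 were hosts, or 13.4%. The hosts were long, with a median length of 52640 bp against 17414 bp for all protein-coding genes, as the minimum width requires. A domain covered a median of 50.1% of its host, and 753 domains (49.8%) lay wholly inside it.

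Nearly all domains began well inside the gene. Only the domain of Gm42715 held the start of its host. In the others the domain began a median of 18825 bp after the start (quartiles 5134 and 52132). The end of the host was held by 758 domains (50.2%), which ran past it by a median of 2119 bp. Several genes carried more than 1 domain: 120 hosts had at least 2, and Abca1, the cholesterol exporter of macrophages, had 4. Dock2, a Rac activator of blood cells, the chromatin remodeler Chd2 and the cytoskeletal linker Macf1 each had 3.

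In cKO every domain still held a called region in each library. So did 98.9% and 99.8% of WT regions of 10 to 20 kb in cKO libraries 1 and 2, whereas 17.6% of all WT regions had none in either. A wider region offers more length to overlap. The cover of the domains differed greatly between the 2 cKO libraries. The cKO library 1 covered 64.3% of the summed domain length and cKO library 2 covered 92.4% (mean 78.3% ± 19.9, SD, n = 2). The WT libraries, which defined the domains, covered 96.0% and 97.2%. The median domain was 64.1% covered in cKO library 1 (quartiles 47.7 and 80.4) and 94.8% in cKO library 2 (quartiles 88.6 and 98.3). Cover was lower in cKO library 1 than in cKO library 2 in 1499 domains (98.2%), equal in 23 and higher in 4. The spread between the cKO libraries was thus larger than the distance of cKO library 2 from WT. The low share of tags in regions of cKO library 1 moves with this difference, and its part in the result was not tested. A base without a called region is not shown to lack the mark, since the lists hold no tag counts per region.

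Long domains were more often retained than shorter WT regions. At least 50% of the length was covered in both cKO libraries in 1089 of the 1526 domains (71.4%), against 26.9% of all 31504 WT regions and 52.5% of the 3293 regions of 10 to 20 kb. In cKO library 2 alone, 1517 domains (99.4%) passed 50%, against 63.2% of all regions. At least 80% was covered in both libraries in 393 domains (25.8%), against 10.1% of all regions. This count was set by cKO library 1, since cKO library 2 alone passed 80% in 1378 domains (90.3%), against 43.1% of all regions. Only 9 domains (0.59%) stayed under 50% in both libraries, against 36.3% of all regions. Within the domains the cover also rose with width. Domains of 20 to 30 kb were covered to 60.2% and 90.7% of their length in cKO libraries 1 and 2, those of 30 to 40 kb to 66.8% and 93.1%, and those of 40 kb or more to 69.9% and 95.1%. WT cover, which was used by the rule, rose with width as well. It was 75.6% and 79.5% in regions under 2 kb, 80.5% and 86.2% at 2 to 5 kb, 93.4% and 95.1% at 10 to 20 kb, 95.3% and 96.8% at 20 to 30 kb, and 97.2% and 97.7% at 40 kb or more. Shorter regions were thus less fully covered in the WT libraries too.

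**Figure D1:**
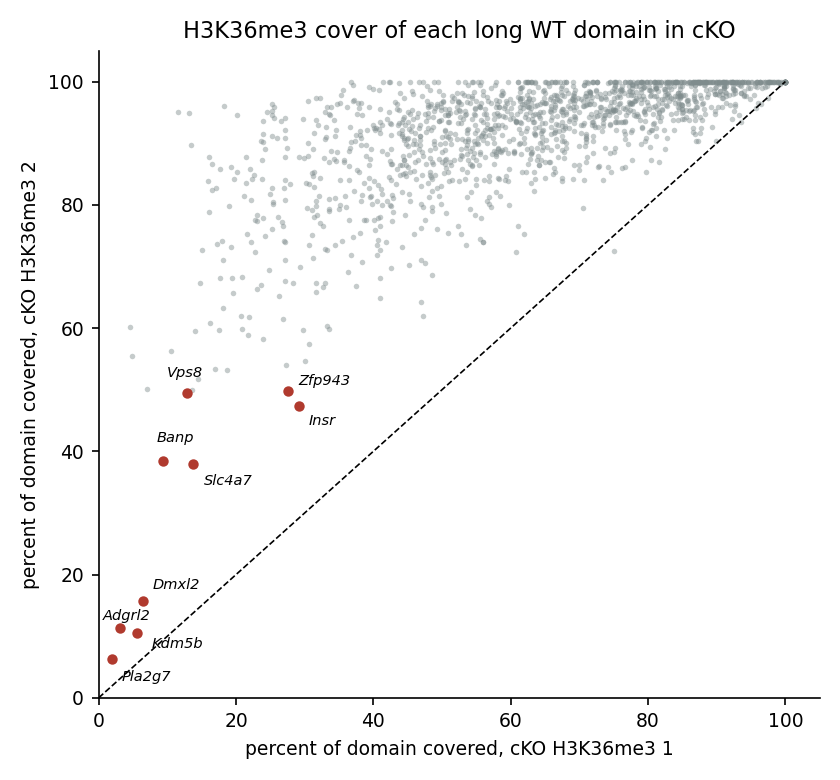
Percent of each of the 1526 long WT domains that was covered by H3K36me3 regions in cKO library 1 (horizontal axis) and cKO library 2 (vertical axis). Each point is a domain, the dashed line marks equal cover, and the 9 domains under 50% in both libraries are in red with the host gene. Almost all points lie above the line, and the cover in cKO library 1 spreads from 1.91% to 100%.

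Because the WT lists defined the domains, the cover of a WT library that had no part in the choice was also taken. Domains of at least 20 kb in WT library 1 alone (990) were covered to 97.5% in WT library 2, to 70.5% in cKO library 1 and to 95.2% in cKO library 2. Domains of WT library 2 alone (1118) were covered to 96.4% in WT library 1, to 68.4% in cKO library 1 and to 94.6% in cKO library 2. In both cases the order of the libraries was the same, with the held-out WT library highest and cKO library 1 lowest. In the reverse direction, the cKO lists merged in the same way gave 1309 domains, and WT libraries 1 and 2 covered 90.7% and 91.9% of their length. These domains came mostly from cKO library 2, which alone gave 1300, whereas cKO library 1 alone gave 206. The cKO library 1 covered 75.3% of the length of the merged domains, less than either WT library.

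The domains broke up mainly in cKO library 1. A domain consisted of a median of 2 pieces in WT library 1, 1 in WT library 2, 5 in cKO library 1 (quartiles 4 and 7, highest 22) and 2 in cKO library 2 (highest 10). A single unbroken piece was seen in 623, 795, 63 and 612 domains, respectively, or 40.8%, 52.1%, 4.13% and 40.1%. At least 5 pieces were seen in 45 and 18 domains in WT, in 927 (60.7%) in cKO library 1 and in 147 (9.63%) in cKO library 2. The longest remaining piece had a median length of 22.1 and 23.2 kb in WT, 7.75 kb in cKO library 1 and 21.2 kb in cKO library 2. A piece of 20 kb or more was left in 142 domains (9.31%) in cKO library 1 and in 853 (55.9%) in cKO library 2. The merged WT lists defined the domains, so the WT values here are partly set by the rule. Of the domains of WT library 1 alone, 73.9% held such a piece in WT library 2. In cKO libraries 1 and 2 the shares were 11.2% and 67.6%. Of those of WT library 2 alone, 65.6% held one in WT library 1, 10.5% in cKO library 1 and 62.7% in cKO library 2. In the reverse direction, WT libraries 1 and 2 held one in 50.2% and 52.5% of the 1300 domains of cKO library 2 alone. The share in cKO library 1 was 15.3%. Of the 206 domains of cKO library 1 alone, 53.9% and 56.3% held one in WT and 100% in cKO library 2. A domain defined in 1 library was thus more broken in others of either genotype.

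Most gaps between pieces were short, but long uncovered stretches were common in cKO library 1. The gaps between pieces had a median length of 691 and 668 bp in WT, 1084 bp in cKO library 1 and 833 bp in cKO library 2. Regions were called with a peak size of 500 bp and a minimum distance between peaks of 1000 bp. These medians are therefore near the resolution of the calling. In cKO library 1, 10% of the gaps exceeded 3673 bp. A gap between pieces of at least 5 kb was found in 369 domains (24.2%) in cKO library 1, in 14 in cKO library 2 and in 0 in each WT library. The WT gaps are limited by the rule, which merged the WT lists. With the domain edges counted as well, the longest uncovered stretch had a median of 3639 bp in cKO library 1 and 944 bp in cKO library 2, and it reached 5 kb in 494 (32.4%) and 22 domains. Of the uncovered length, 72.6% lay between pieces and the rest at the edges in cKO library 1, and 63.2% in cKO library 2. The 2 cKO libraries shared most of what was lost in cKO library 2. Only 0.375% of the domain length was uncovered in cKO library 2 alone, 7.25% was uncovered in both and 28.5% in cKO library 1 alone. Joining pieces up to 3 kb apart brought the median to 1 piece in each cKO library.

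**Figure D2:**
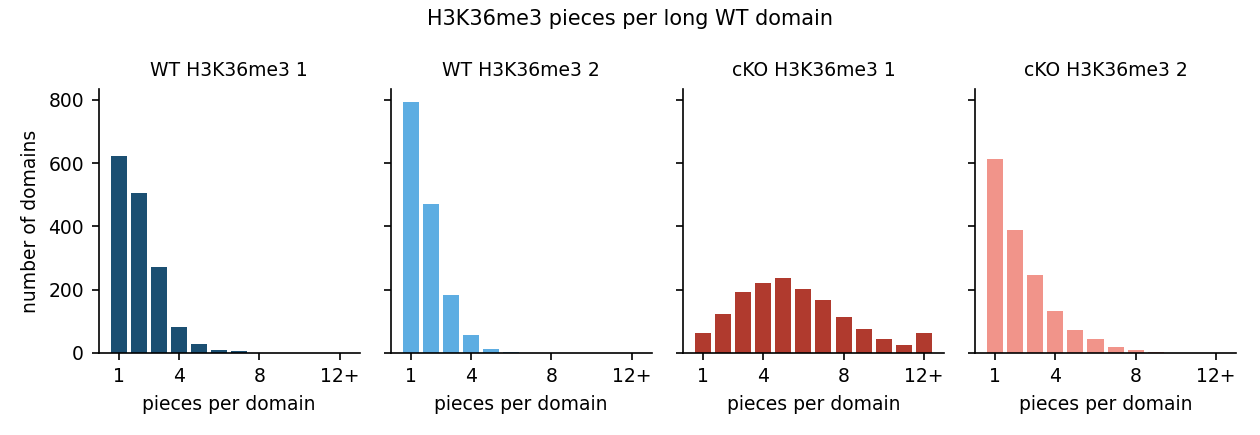
Number of H3K36me3 pieces per long WT domain in each library, with the number of domains on the vertical axis and values of 12 or more in the last bar. The distribution of cKO library 1 is centred on 5 pieces, and in the other 3 libraries a single piece is the most frequent state. The WT libraries defined the domains.

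The widest domains illustrate this pattern. Ubr4, a very large ubiquitin ligase, hosted the widest domain (chr4:139389402-139491809, 102 kb). It was 81.1% covered in 18 pieces in cKO library 1 and 98.9% covered in 1 piece in cKO library 2. Vps13c, a lipid transfer protein, had 77.3% in 18 pieces and 98.5% in 3 pieces. Cep350, a centrosomal protein, had the most pieces of all domains, with 75.4% cover in 22 pieces in cKO library 1 and 98.6% in 3 pieces in cKO library 2. Rnf213, an interferon-induced ATPase and ubiquitin ligase, differed from these. Its 93.8 kb domain (chr11:119394882-119488667) was 96.6% covered in 3 pieces and 98.9% covered in 2 pieces. Among the next widest, cKO library 1 and cKO library 2 covered 54.8% and 95.5% of the Dmxl1 domain, 69.3% and 98.6% of Wdfy3, an autophagy adaptor, and 83.9% and 96.5% of the class I myosin Myo1e. The domain of Ep400, the ATPase of a chromatin remodeling complex, had 45.6% and 98.5%. Bdp1, a subunit of the RNA polymerase III factor TFIIIB, had 61.7% and 97.4%, and Ankrd17 had 65.0% and 100%.

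**Figure D3:**
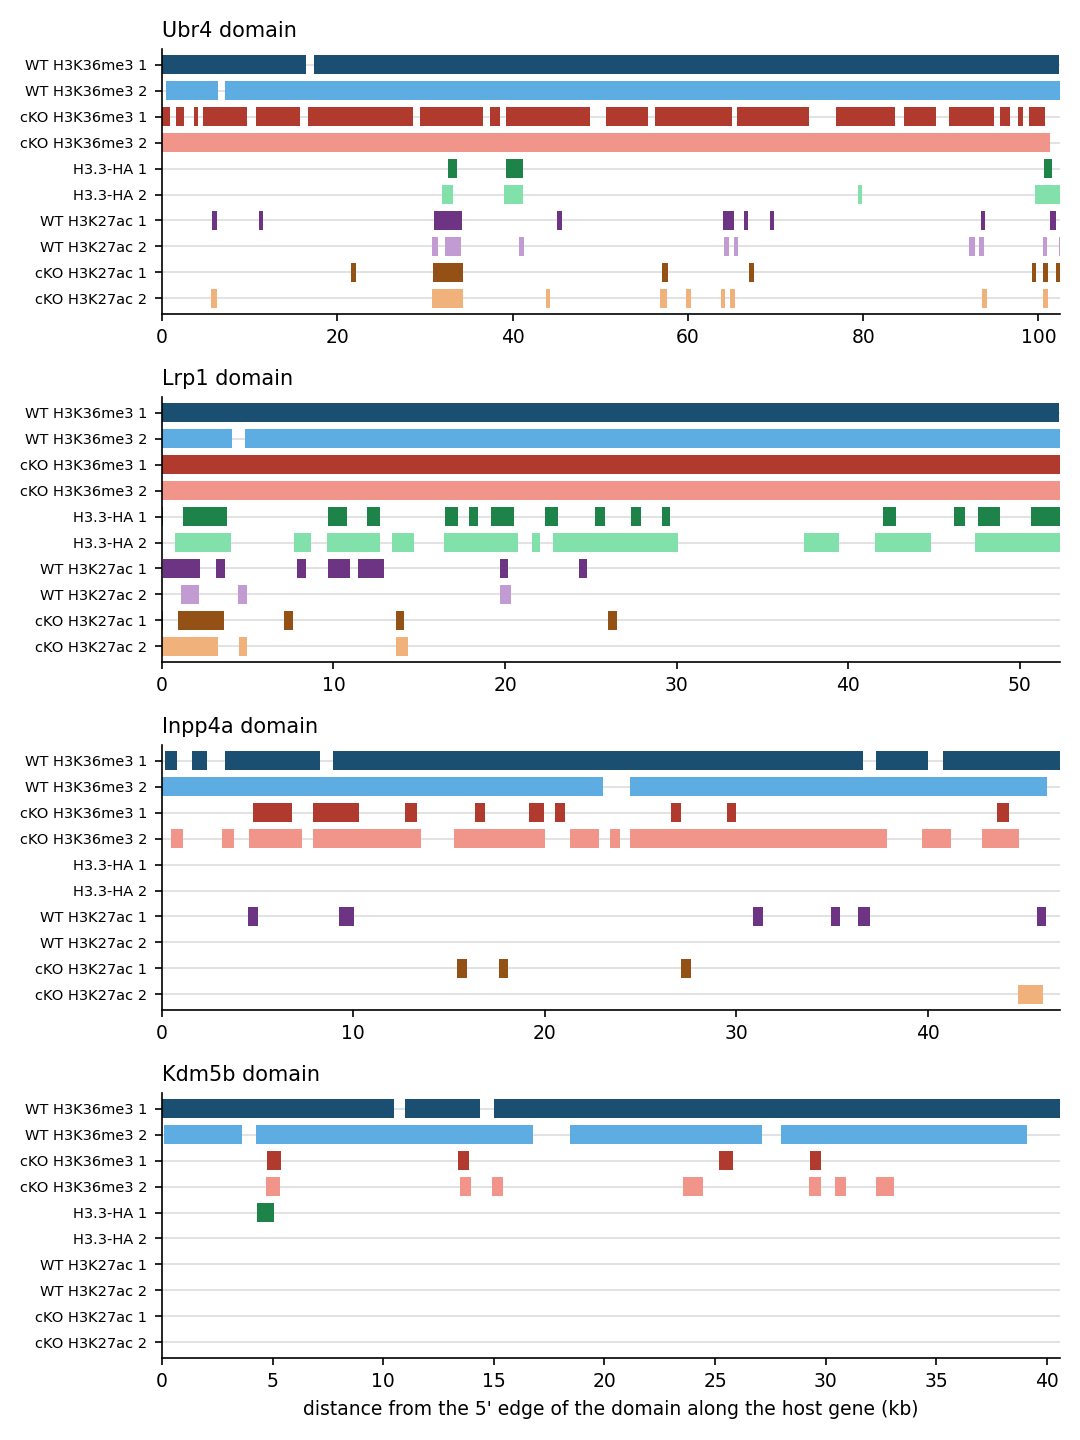
Called regions of the 10 libraries over 4 domains, with the distance from the 5′ edge of the domain along the host gene in kb on the horizontal axis. Ubr4 is split into 18 pieces in cKO library 1 and whole in cKO library 2, Lrp1 is unbroken in both, Inpp4a is reduced in both and most in cKO library 1, and Kdm5b is reduced to a few narrow regions in both.

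Among the 200 widest domains, the 5 best kept included receptors and signaling genes of macrophages. The domains of Lrp1, an endocytic receptor (chr10:127538344-127590676), and Osbpl8, a lipid transfer protein (chr10:111253073-111297679), were 100% covered in 1 piece in both cKO libraries. Pik3ap1, an adaptor for PI3-kinase, had 99.0% and 99.9%. Cd44, the hyaluronan receptor, had 98.4% and 100%. Inpp5d, which encodes the phosphatase SHIP1, had 97.3% and 99.2%. All 5 were overlapped by H3.3-HA in both libraries, from 9.93% and 18.4% of the length in Inpp5d to 73.4% and 52.2% in Osbpl8. Of the 200 widest domains, 158 (79.0%) were overlapped in both.

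The least kept of the 200 widest were taken as those with the lowest value in the cKO library that covered them more, which was cKO library 2 for all 5. The domain of Inpp4a, an inositol polyphosphate phosphatase (chr1:37361533-37408427), was 18.1% covered in 9 pieces in cKO library 1 and 71.1% covered in 10 pieces in cKO library 2. Snx29, a sorting nexin, had 28.3% and 67.3%, and Gpatch2l had 31.3% and 78.1%. Ino80d, a subunit of the INO80 remodeler, had 50.6% and 78.7%, and Cramp1l had 54.1% and 79.4%. H3.3-HA covered at most 2.51% of any of these 5 domains, and it was not called in Inpp4a and Snx29. The 2 cKO libraries differed most over Taf1, the largest subunit of TFIID, with 32.2% and 97.4%. They were followed by Pik3c3, the class III PI3-kinase, with 32.8% and 87.6%, methionine synthase Mtr with 37.5% and 91.3%, Inpp4a, and the site-1 protease Mbtps1 with 37.3% and 90.3%. None of these 5 domains had an H3.3-HA region in either library, which held for 19 (9.5%) of the 200 widest.

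Only 9 domains were under 50% covered in both cKO libraries, and their hosts were named after the values had been seen. Pla2g7, the lipoprotein-associated phospholipase (chr17:43587611-43613889), kept the least, with 1.91% and 6.23%. Adgrl2, an adhesion receptor (chr3:148815794-148839232), had 3.05% and 11.4%. Kdm5b, a demethylase of H3K4 (chr1:134593063-134633636), had 5.65% in 4 pieces and 10.6% in 7 pieces, none longer than 0.883 kb. Dmxl2, a regulator of vesicle acidification (chr9:54442432-54462745), had 6.41% and 15.7%. These 4 were separated from the next domain by a wide step in cKO library 2. The bicarbonate transporter Slc4a7 had 13.8% and 38.0%, Banp had 9.38% and 38.5%, the insulin receptor Insr had 29.1% and 47.3%, Vps8, a vesicle tethering subunit, had 12.9% and 49.5%, and the zinc finger gene Zfp943 had 27.6% and 49.8%. The WT cover of these domains was a little lower than usual, with medians of 91.9% and 93.2% against 96.8% and 97.8% for all domains.

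H3K27ac was also low in these 9 domains, and it had not been used to choose them. It covered 3.99% and 3.73% of their length in WT and 0.429% and 0.704% in cKO, against 18.3% and 13.4% in WT and 5.14% and 6.27% in cKO over all domains. A region within 1 kb of the host start was called in both cKO libraries for 11.1% of them and for 78.6% of all domains, and in both WT libraries for 44.4% and 69.5%. Start sites of Pla2g7 and Vps8 had a region in both WT libraries and in neither cKO library. Those of Kdm5b, Adgrl2 and Dmxl2 had none in any of the 4 libraries, and that of Insr had one in all 4. That of Zfp943 had one in both WT libraries and cKO library 2, that of Slc4a7 in WT library 1 alone and that of Banp in cKO library 2 alone. With 9 domains these shares are a description.

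Along the gene, the domains were least covered at the 3′ edge in cKO. Each genic domain was divided into 20 bins from 5′ to 3′. In cKO library 1 the first 4, the middle 4 and the last 4 bins were covered to 60.4%, 67.8% and 52.4%. In cKO library 2 they were covered to 89.1%, 95.2% and 85.0%. The 5′ bins thus exceeded the 3′ bins by 8.0 and 4.08 percentage points, which fell to 2.06 and 0.973 when WT regions up to 3 kb apart were merged. WT cover at these edges is set by the rule, so it was taken from the WT library that did not define the domains. On the domains of WT library 1 alone, the difference was 0.549 points in WT library 2, 6.86 in cKO library 1 and 2.88 in cKO library 2. On those of WT library 2 alone, it was 0.0363 in WT library 1, 8.46 in cKO library 1 and 3.38 in cKO library 2. H3.3-HA ran the other way, with 7.47% in the first 4 and 14.2% in the last 4 bins in library 1, and 8.35% and 15.3% in library 2.

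The asymmetry was larger in domains that reached the end of the gene. In the 906 domains that ended past the end of the host or within 2 kb before it, the cover of the 3′ 20% minus that of the 5′ 20% of the domain was -12.4 percentage points in cKO library 1 and -6.59 in cKO library 2. In the 416 domains that ended more than 10 kb before the gene end, this difference was -0.701 and -0.274 in cKO. H3.3-HA was higher in the 3′ 20% by 8.32 and 8.61 points in the first group of domains and by 3.79 and 3.32 in the second. H3K27ac fell along domains that reached the gene end, from 23.9% to 12.1% in WT library 1 and from 9.41% to 2.92% in cKO library 1. It therefore moved with the cKO cover, and the part of either in the other was not tested.

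In 1 kb bins around the end of these 906 hosts, H3K36me3 fell while H3.3-HA rose. From 10 kb before the end to the last kilobase, the cover fell from 98.2% to 85.9% in WT library 1 and from 98.4% to 88.7% in WT library 2. It fell from 72.5% to 50.3% in cKO library 1 and from 95.8% to 81.7% in cKO library 2. These domains were chosen by WT cover and by where they ended, so the WT values before the end are a description only. H3.3-HA rose over the same distance from 8.3% to 24.5% in library 1 and from 7.86% to 21.7% in library 2. It was highest in the second kilobase after the gene end, with 27.8% and 32.2%, where H3K36me3 covered 51.2% and 51.3% in WT and 24.0% and 45.2% in cKO. There H3K36me3 cover was below both H3.3-HA libraries in cKO library 1 and above both in the other 3 libraries. These libraries differed in antibody, genotype and number of tags, so this order does not compare amounts.

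**Figure D4:**
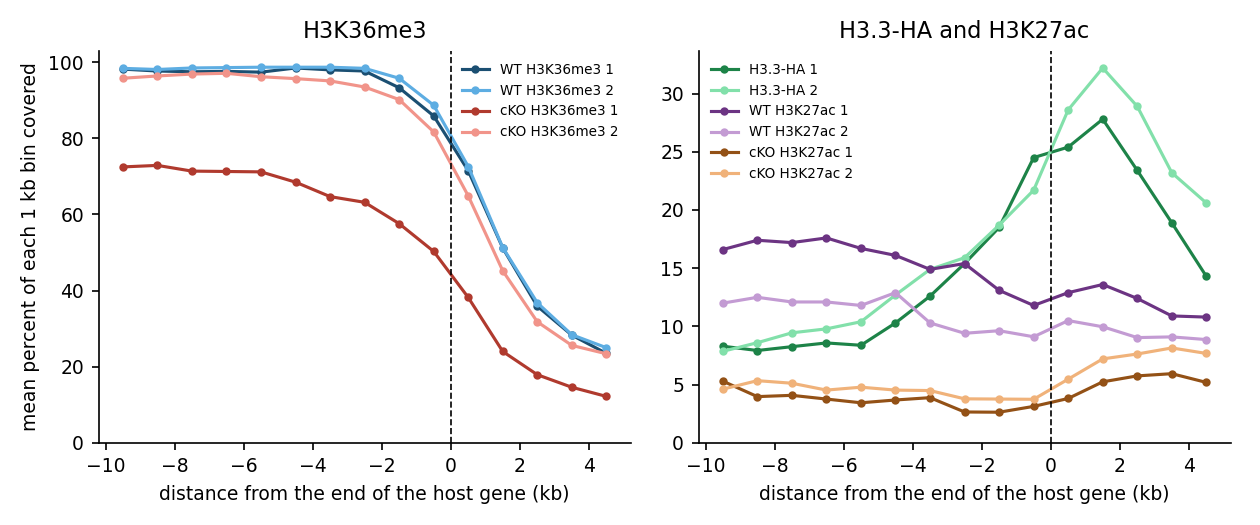
Mean percent of 1 kb bins covered around the end of the host gene, for the 906 long domains that ended past it or within 2 kb before it. The left panel shows H3K36me3 and the right panel H3.3-HA and H3K27ac, each line being 1 library. H3K36me3 declines across the gene end in all 4 libraries, while both H3.3-HA libraries peak in the second kilobase after it. The WT lines before the gene end are largely set by the choice of the domains.

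H3.3-HA occupied a small part of most domains. It covered 9.0% and 9.58% of the domain length (mean 9.29% ± 0.407, SD, n = 2), against 2.13% and 2.38% of the chromosomes. WT regions of 10 to 20 kb were close to the domains, with 8.1% and 9.83%. Both H3.3-HA libraries overlapped 946 domains (62.0%), against 20.9% of all WT regions, and a wider region offers more length to overlap. Neither library overlapped 292 domains (19.1%). The H3.3-HA regions were narrow, with a median longest piece per domain of 1203 and 1372 bp, and 18 domains were at least 50% covered in both libraries. The most covered was that of Lpl, lipoprotein lipase (chr8:68882722-68905299), with 74.2% and 91.1%. It was followed by Dab2, an endocytic adaptor, with 72.8% and 78.9%. Both were kept in cKO, with 97.5% and 100% in Lpl and 96.3% and 100% in Dab2.

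Domains with more H3.3-HA in tagged cells kept more H3K36me3 in cKO cells. The 292 domains without a called H3.3-HA region had a median cover of 47.3% in cKO library 1 and 90.7% in cKO library 2. With H3.3-HA in both libraries but under 10% in the lower one (592 domains), the medians were 65.5% and 95.4%. From 10% to 30% (277 domains) they were 81.0% and 97.3%, and at 30% or more (77 domains) they were 91.4% and 99.7%. The number of pieces in cKO library 1 fell along these classes from a median of 6 to 5, 4 and 2. WT cover ran from 96.2% and 96.6% in domains without H3.3-HA to 97.2% and 98.0% in the highest class. It was used by the rule and so was near its ceiling in every class, and it is no reference for the cKO trend. Across all 1526 domains Spearman's rho with cKO library 1 was 0.516 and 0.521 for the H3.3-HA libraries, and with cKO library 2 it was 0.35 and 0.353. Domains are not independent replicates, so no p-value is given.

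Other measures moved along the same classes. The H3K27ac cover in WT rose from 9.19% and 6.23% without H3.3-HA to 43.8% and 35.2% in the highest class, and the median host length fell from 60.9 to 37.8 kb. Median GC content stayed between 42.0% and 43.1%. The part of H3K27ac and gene length in the result was not tested. WT regions of 10 to 20 kb showed the same order, with medians in cKO library 1 of 38.2%, 59.5%, 71.9% and 88.0%, so it was not particular to long domains.

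**Figure D5:**
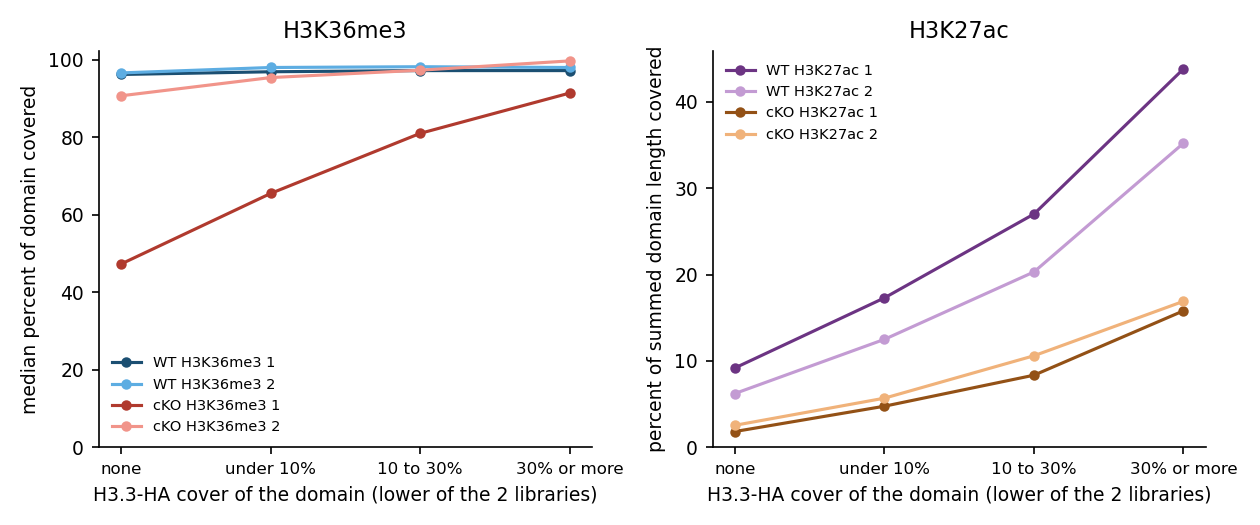
Left, median percent of the domain covered by H3K36me3 in each library, for domains without H3.3-HA and in 3 classes of H3.3-HA cover (292, 592, 277 and 77 domains). Right, percent of summed domain length covered by H3K27ac in the same classes. Cover in cKO library 1 rises from 47.3% to 91.4% and WT H3K27ac rises alongside it. WT H3K36me3 cover was used to choose the domains and is high in every class for that reason.

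H3K27ac was the mark measured in both genotypes that did not enter the choice of domains. It covered 18.3% and 13.4% of the domain length in WT (mean 15.9% ± 3.44, SD, n = 2) and 5.14% and 6.27% in cKO (mean 5.7% ± 0.802, SD, n = 2). Both cKO values were below both WT values, and the difference of the means was -10.1 percentage points. The two-sided exact permutation test gave p = 0.333, which is the smallest p that 2 against 2 libraries allow. H3K27ac cover of whole chromosomes was also lower in cKO, at 1.75% and 2.35% against 3.4% and 2.84% in WT. In cKO library 1 for H3K27ac, 11.8% of tags were in regions, against 17.8% in cKO library 2 and 21.5% and 24.1% in WT. These shares move with the result, and their part in it was not tested.

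The cover of the domains was next described for lists of genes with a common role. The lists were chosen with results of these data known and are described by counts only. Of all 1511 genic domains, 1077 (71.3%) were at least 50% covered in both cKO libraries, with medians of 64.1% and 94.8%, and 389 (25.7%) were at least 80% covered in both.

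Domains of interferon-stimulated genes had the highest medians among these lists. Of 51 matched genes 10 hosted a domain, and all 10 domains were over 50% covered in both libraries, with medians of 91.3% and 99.8%. The antiviral ADP-ribosyltransferases Parp14 (97.3% and 100%) and Parp9 (84.2% and 100%) were among them, next to Rnf213. The domain assigned to Parp12 had 76.2% and 99.3%, but 49.6% of it lay in that gene and it ran 30105 bp past the gene end. Regulators of phagocytosis and actin followed, with 20 of 36 genes as hosts and 25 of 27 domains over 50%. Their medians were 88.1% and 99.4%. Where a gene hosted several domains, the values here are those of the widest. The widest domains of the Rac and Cdc42 activators Dock2 and Dock8 had 92.5% and 98.7%, and 91.1% and 100%, and that of the vesicle motor Myo5a had 84.6% and 98.8%. The domain of Dock2 covered 9.39% of the gene, and its other 2 domains had 86.1% and 100%, and 54.4% and 97.7%.

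Genes of macrophage identity hosted 11 domains from 33 genes, and 9 of these domains were over 50% covered in both libraries, with medians of 84.5% and 96.3%. Adgre1, which encodes F4/80, had 94.3% and 100%, and the mannose receptor Mrc1 had 97.6% and 99.9%. Ptprc, which encodes CD45, had 74.2% and 99.8%. A domain with 62.5% and 86.6% was assigned to the chemokine receptor Cx3cr1 by overlap alone. It began 138098 bp after the start of that annotation, covered 17.9% of it and overlapped 3 protein-coding genes, so its cover cannot be given to Cx3cr1. Lysosome and vesicle genes had 16 of 20 domains over 50% (medians 82.7% and 98.9%), with the proton pump subunit Atp6v0a1 at 95.8% and 99.1%, the clathrin adaptor Picalm at 92.8% and 100%, the domain of the cholesterol transporter Npc1, 73.9% of which lay in the gene, at 85.2% and 100%, and Ap2a2 at 61.4% and 97.3%. No marker of another cell type hosted a domain, out of 34 genes, of which 16 were 20 kb or longer and 13.4% of all such genes were hosts.

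The remaining lists held genes used by most cells. Chromatin regulators hosted 35 domains in 28 of 50 genes, of which 32 were over 50% covered in both libraries, with medians of 71.7% and 96.8%. The H3K36 methyltransferases Nsd1 and Nsd2 had 71.7% and 96.8%, and 79.7% and 100%. The related Ash1l had 48.0% and 95.8%, and the acetyltransferase Ep300 had 90.0% and 98.0%. Ubiquitin ligases and very large scaffold proteins, a list chosen for long genes, hosted domains in 24 of 34 genes, all of 20 kb or more (70.6%). Among genes of that length the share was 60.9% for chromatin regulators, 60.7% for lysosome and vesicle genes and 58.8% for phagocytosis and actin regulators. It was 52.4% for macrophage identity, 41.7% for interferon-stimulated genes, 22.9% for DNA damage and replication and 16.7% for lipid and sterol synthesis. The share of all such genes was 13.4%. Of the 42 domains in the list of ubiquitin ligases and scaffold proteins, 30 were over 50%, with medians of 63.6% and 97.4%. In Trip12 the values were 77.9% and 94.5%. DNA damage and replication genes had 5 of 9 domains over 50% (medians 61.7% and 98.5%), with Top1 at 89.6% and 98.5%, the cohesin subunit Smc3 at 39.7% and 89.1%, Smc6 at 61.7% and 99.1%, and the ubiquitin ligase Huwe1 at 48.2% and 98.6%. Genes of lipid and sterol synthesis hosted 4 domains, all over 50%, with medians of 64.9% and 96.3%. They included Acly, the enzyme that makes cytosolic acetyl-CoA (60.1% and 95.7%), and the sterol-responsive transcription factor Srebf2 (61.3% and 96.8%). Across the 8 lists with a domain, the medians ran from 61.7% to 91.3% in cKO library 1 and from 96.3% to 99.8% in cKO library 2, against 64.1% and 94.8% for all genic domains.

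A small number of domains lay outside the protein-coding genes of GENCODE M21. There were 15, and 2 of them overlapped no GENCODE gene of any type, but RefSeq annotates a protein-coding gene at 8 of the 15. The widest (chr5:104572979-104607953, 35.0 kb) was 59.6% and 83.8% covered in cKO and held no H3.3-HA and no H3K27ac region in any library. RefSeq places the protein-coding genes Zfp33b and Gm31255 and the pseudogene Gm45931 there. A domain of 34.7 kb (chr6:149274453-149309185) overlapped the unclassified transcript Gm10388 and was 64.1% and 94.4% covered. Another of 30.8 kb (chr17:17182613-17213459), where RefSeq has the protein-coding gene Gm38396, was 78.3% and 94.4% covered. The host of the microRNAs Mir29a and Mir29b-1 (chr6:31054851-31075642) was better kept, with 91.0% and 99.0%, and had H3.3-HA over 20.0% and 29.5% of its length.

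The domains were spread over all 20 chromosomes, with 149 on chromosome 2 and 121 on chromosome 11. Chromosome X had 15, and 14 of its 390 protein-coding genes of 20 kb or more were hosts (3.59%), against 13.4% of all such genes. The domains on X were 63.3% and 97.5% covered in cKO. Autosomes ranged from 58.1% to 68.3% in cKO library 1 and from 89.9% to 94.3% in cKO library 2.

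Just above 20 kb, the domains of Peli1, Trpm7 and Papola were covered to 72.7% and 86.1%, 44.5% and 97.4%, and 85.6% and 97.0% in cKO. Just below it, the regions of Uba6 (19997 bp), Zfp780b (19994 bp) and 4930503L19Rik (19981 bp) were covered to 15.3% and 98.0%, 60.9% and 84.1%, and 81.9% and 100%.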

How the data were processed

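The lists were called regions of CUT&RUN libraries. Per the study's methods, the authors aligned reads to mm10 with Bowtie2 and called regions with HOMER, and the submitters' processing notes also name cutadapt. Per the file headers, the control was WT IgG for the WT lists, cKO IgG for the cKO lists and a control labelled IgG for H3.3-HA. The control thus differed between the genotypes, and its part in their differences was not tested. Regions had to exceed the control 4-fold at a Poisson p-value of 1e-04. The deposited lists give a start and an end for each region, and a score that is 1 in every row, so depth and signal per region are unknown and the percentages have no counting interval. Tags per library are from the headers. Region positions (1-based here) were intersected in Python 3.11.15 with numpy 2.4.6 and pandas 2.3.3. Cover is the percent of a domain overlapped by called regions. The host is the protein-coding GENCODE M21 gene with the largest overlap, ties going to the shorter gene. Annotations that contain 5 or more other genes of their strand (32) were left out. The interval code was tested on 200 simulated pairs of lists, with 0 mismatches. H3K27ac was compared by an exact permutation test over libraries. The labels name biological replicates without saying which animals they came from. Members and lists were chosen with earlier results of these data known.

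Named hosts were the 10 widest domains, among the 200 widest the 5 best and 5 least kept and the 5 that differed most between cKO libraries, the 3 widest without a coding gene, the 3 with most H3.3-HA, 3 on each side of 20 kb, and up to 4 list members by width. The 4 domains drawn as tracks, the printed sequences, the genes with several domains and the 9 domains under 50% were picked after their values were seen. Alternatives changed the width, the merging, the libraries and the thresholds. A few genes that this rule names are not reported here.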

Additional observations from a re-analysis of the deposited data

How the results depend on the processing

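Of 79 recomputed values, 59 stayed within the tolerance. Counts, cover, pieces and shares cannot be negative, so only the H3K27ac difference and the edge difference could change sign. Neither did. The tolerance was 1 SD of the 2 libraries for cover, pieces and the edge difference, 1.5-fold for the number of domains, the 95% binomial interval for shares of domains, and direction alone for the H3K27ac difference. For cKO cover the SD of 19.9 points makes this tolerance wide. A single library of 2 always lies within 1 SD of their mean. Values of cover, pieces and the edge difference in a single cKO or H3.3-HA library were therefore within it in advance. The number of domains depended most on the definition: 4819 at a minimum width of 10 kb, 565 at 30 kb, 3584 when WT regions up to 3 kb apart were merged, 741 for the intersection of the WT lists, and 990 to 1118 with 1 WT library. The share of domains at least 50% covered in both cKO libraries was 58.5%, 81.2%, 38.8% and 86.8% under the first 4 of these and 78.2% to 81.5% with 1 WT library. It was 25.8% at a threshold of 80% and 97.2% at 20%. Without cKO library 1 it was 99.4%, and without cKO library 2 it was 71.4%, an alternative added after the data were seen. The median number of pieces fell to 1 when pieces up to 3 kb apart were joined. H3.3-HA cover was 9.71% with merging over 3 kb, 9.97% for the intersection, 9.26% to 9.82% with 1 WT library, and 9.0% and 9.58% in the single H3.3-HA libraries. The share of domains with a host became 99.9% when all annotated genes counted. The excess of the first over the last 4 of 20 bins in cKO fell to 1.52 points with merging over 3 kb. Mean cKO cover ran from 59.4% with merging over 3 kb to 85.4% for the intersection, and was 92.4% and 64.3% in the single cKO libraries. The H3K27ac difference ran from -12.6 to -7.72 points when 1 H3K27ac library was left out. With same-numbered libraries paired in a replicate block it was -10.1 (exact sign-flip p = 0.5, the smallest possible), and it was -10.1 (p = 0.5) with crossed pairs, tried because the deviations of same-numbered libraries correlated at r = -0.152 over the 1526 domains. The numbers therefore do not show that libraries were paired. Causes were not tested. With 2 libraries a group and no tag counts per region, no difference in cover between genotypes can reach a p below 0.333 in the exact test.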
